A study of Rattus norvegicus with 48 samples.

Results

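Cholesterol and fatty acid synthesis genes were followed in rat lung after inhalation of fracking sand dust together with diesel particles. The set holds enzymes of the mevalonate and cholesterol pathway, the regulators of that pathway, and the main enzymes of fatty acid synthesis, elongation and desaturation. It was taken by gene name, and 30 of the 31 names had a row among the 32285 gene identifiers of the count tables. The name without a row was Scd, the stearoyl-CoA desaturase. The tables carry its older rat symbol, Scd1 (ENSRNOG00000013552; the RefSeq gene table gives Scd1 as a synonym of Scd), which is described beside the 30 but not counted among them.

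The study sequenced polyadenylated lung RNA of 48 rats in 6 groups of 8. All were healthy male Sprague-Dawley rats housed in pairs, and their age is not given in the sources used here. Air groups inhaled filtered air with the whole body exposed, 6 hours a day for 4 days. Exposed groups inhaled, on the same schedule, fracking sand dust at 30 mg/m3 mixed with diesel particles at 1.0 mg/m3. Separate animals gave a piece of lung for RNA at 1, 7 and 27 days past the exposure. There was no group with sand dust or diesel particles alone, so the effects of the components cannot be told apart.

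Cells make cholesterol from acetyl-CoA by way of mevalonate, squalene and lanosterol, and make fatty acids from the same precursor. When sterol in the endoplasmic reticulum is low, Scap carries the SREBP transcription factors (Srebf1 and Srebf2) to the Golgi for cleavage, and they then raise transcription of both sets of enzymes; Insig1 holds them back when sterol is plentiful. In the lung, alveolar type 2 cells draw on both sets to make the lipid of surfactant. In a piece of whole lung, fewer cells of a type and less RNA per cell cannot be told apart.

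Libraries held 9445675 to 14400317 counts, with a median of 12004516. The labels give each library its own animal number. In 4 groups, however, 1 pair of libraries differed by only 1.45 to 1.67 times counting noise, against at least 2.41 times in the other 164 pairs within groups. These were libraries 1 and 4 of exposed day 1, 1 and 4 of air day 7, 3 and 6 of exposed day 7, and 3 and 6 of air day 27, numbered in the order of the animal numbers. A mean ± SD counts such a pair once, as its average (n = 7), whereas ranges and tests use all libraries. The lung markers Sftpc (type 2 cells), Scgb1a1 (club cells), Ager (type 1 cells), Col1a1 (fibroblasts) and Ptprc (leukocytes) were present at every day.

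Values are given as CPM, counts scaled to a common library size. No synthesis gene passed the test at any day. Exposed and air libraries of the same day were compared with edgeR's quasi-likelihood test, and p was adjusted over all genes tested by Benjamini-Hochberg with a threshold of 0.05. All 30 genes passed the filter on low counts at each day. The smallest adjusted p among them was 0.548 at day 1, 0.446 at day 7 and 0.118 at day 27. Over all genes tested, 0.0279% were called at day 1, 0% at day 7 and 5.52% at day 27. DESeq2 and limma-voom called 0 of the 30 as well. For every one of these genes and each day the values of the exposed and air libraries overlapped. How often this holds over all genes was not counted, so it is no trait of the set.

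Day 7 was the day with the most differences on one side. There 26 of the 30 genes were lower in exposed lungs, against 50.3% of all genes. The median log2 fold change was -0.12 over the 30 and -7.96e-04 over all genes. An unadjusted p under 0.05 was found for 8 genes, all lower in exposed lungs, against 4.15% of all genes lower and 4.32% higher. At least 7 of the 8 exposed libraries were below the mean of all 8 air libraries for 13 of the 30 genes, against 11.7% of all genes, and at least 7 were above it for 0 of the 30, against 9.02%. Against the air mean with the close pair averaged, which the counts for single genes use, 11 of the 30 had at least 7 exposed libraries below. Without exposed library 5, in which 20 of the 30 were highest in their group, 14 genes had an unadjusted p under 0.05, and without any other single library 7 to 12. The members varied together from lung to lung within groups, as described below, so a few libraries can shift many of them at once. Counts of members, at this and the other days, are therefore not counts of separate observations.

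**Figure D1:**
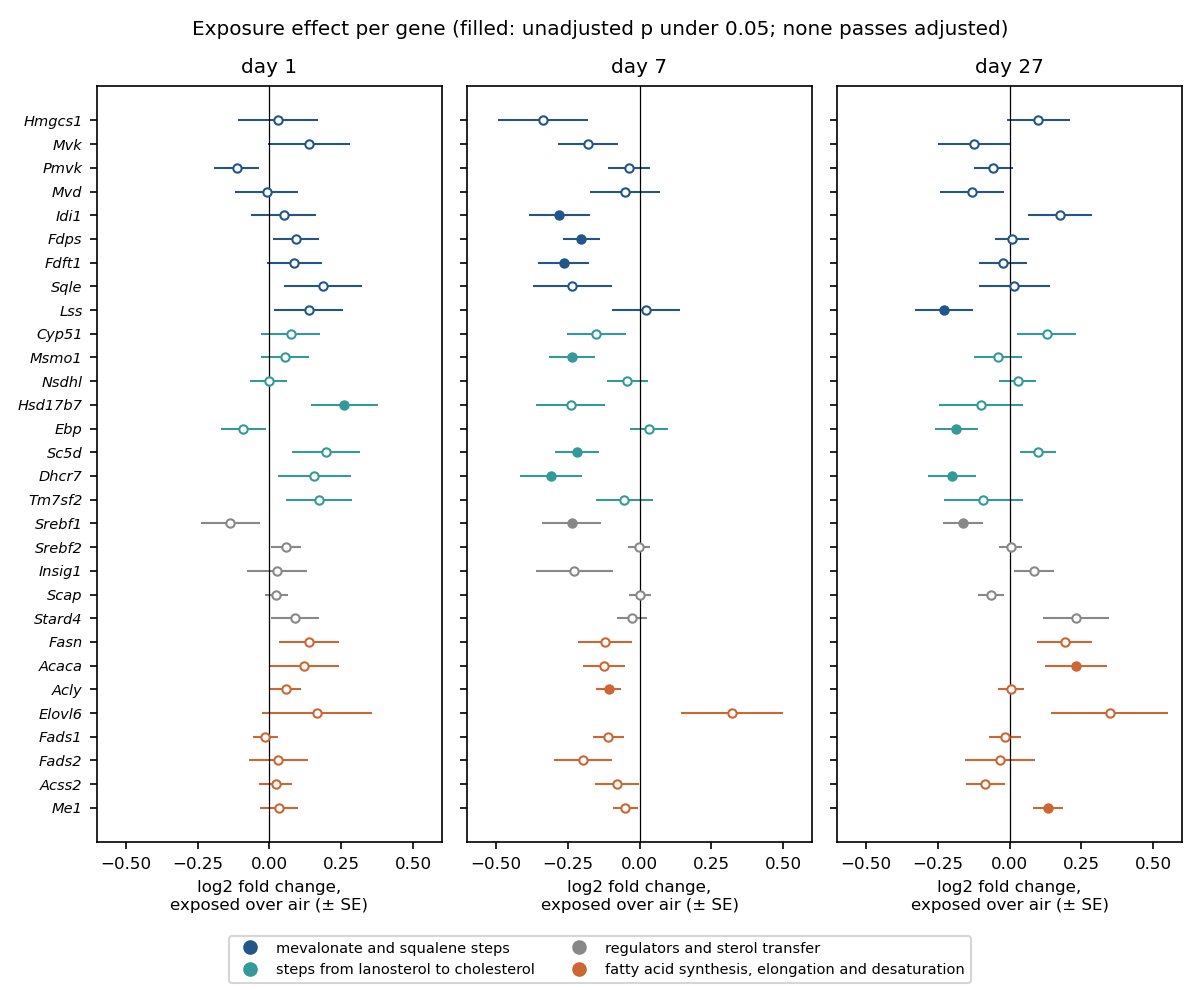
Log2 fold change of exposed over air ± SE for each of the 30 genes at days 1, 7 and 27, coloured by branch, with filled points where the unadjusted edgeR p is under 0.05. At day 7, 26 of 30 points lie left of 0, while at days 1 and 27 there are 6 and 15.

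The enzymes from acetoacetyl-CoA to lanosterol had a median log2 fold change of -0.20 at day 7, with 8 of 9 lower. Fdps, which makes farnesyl diphosphate, ranged from 96.6 to 136 CPM (median 110.4) in the air libraries and from 87.5 to 118 CPM (median 96.8) in the exposed libraries. Of the exposed libraries 7 lay below the air mean, and library 5, at 118 CPM, stood above the rest. Its means were 113 ± 13.2 CPM (SD, n = 7) in air and 98.2 ± 9.77 CPM (SD, n = 7) in exposed lungs, a log2 fold change of -0.20 ± 0.06 (SE, adjusted p = 0.446 in edgeR), the smallest p among the 30 at this day. Fdft1, the squalene synthase and the first step committed to sterol, ranged from 61.8 to 84.5 CPM (median 72.6) in the air libraries and from 49.5 to 74.7 CPM (median 59.6) in the exposed libraries. Here 6 exposed libraries were below every air library, and 1, again library 5, was above the air mean. Its means were 71.6 ± 9.82 CPM (SD, n = 7) in air and 60.7 ± 8.75 CPM (SD, n = 7) in exposed lungs, a log2 fold change of -0.26 ± 0.09 (SE, adjusted p = 0.463 in edgeR).

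Idi1, the isopentenyl diphosphate isomerase, ranged from 39.0 to 64.5 CPM (median 52.4) in the air libraries and from 32.4 to 54.7 CPM (median 41.0) in the exposed libraries, with a log2 fold change of -0.28 ± 0.11 (SE, adjusted p = 0.511 in edgeR). Hmgcs1 condenses the first units of the pathway, and its libraries ranged from 97.0 to 179 CPM (median 144) in the air libraries and from 85.7 to 159.9 CPM (median 105) in the exposed libraries. Its means were 138 ± 33.3 CPM (SD, n = 7) in air and 114 ± 25.7 CPM (SD, n = 7) in exposed lungs, a log2 fold change of -0.34 ± 0.16 (SE, adjusted p = 0.591 in edgeR). That was the lowest fold change of the 30, but its SE was wide and the air libraries alone spread almost as far as all 16. Sqle, the squalene epoxidase, ranged from 39.6 to 70.4 CPM (median 46.9) in the air libraries and from 29.0 to 59.4 CPM (median 39.4) in the exposed libraries, with a log2 fold change of -0.23 ± 0.14 (SE, adjusted p = 0.662 in edgeR). For Idi1 and Sqle 7 of 8 exposed libraries were below the air mean, and for Hmgcs1 6.

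Members of the same stretch did not all have these values. Lss, which closes squalene epoxide to lanosterol, was at 54.5 ± 9.46 CPM (SD, n = 7) in air and 56.5 ± 10.3 CPM (SD, n = 7) in exposed lungs, a log2 fold change of 0.02 ± 0.12 (SE, adjusted p = 0.979 in edgeR), with 6 exposed libraries above the air mean. Pmvk, the phosphomevalonate kinase, was at 22.9 ± 1.57 CPM (SD, n = 7) in air and 22.2 ± 2.95 CPM (SD, n = 7) in exposed lungs, a log2 fold change of -0.04 ± 0.07 (SE, adjusted p = 0.928 in edgeR). The mevalonate kinase Mvk and the decarboxylase Mvd had log2 fold changes of -0.18 and -0.05.

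From lanosterol to cholesterol the median at day 7 was -0.18, with 7 of 8 genes lower. Msmo1, the methylsterol oxidase, ranged from 49.7 to 74.2 CPM (median 59.2) in the air libraries and from 42.6 to 64.2 CPM (median 50.8) in the exposed libraries, with a log2 fold change of -0.23 ± 0.08 (SE, adjusted p = 0.463 in edgeR). Sc5d, the desaturase that works late in the pathway, ranged from 63.3 to 88.4 CPM (median 79.9) in the air libraries and from 55.6 to 83.0 CPM (median 66.8) in the exposed libraries, with a log2 fold change of -0.22 ± 0.08 (SE, adjusted p = 0.466 in edgeR). Dhcr7 carries out the final reduction of one of the routes to cholesterol. It ranged from 12.4 to 20.6 CPM (median 13.8) in the air libraries and from 9.79 to 15.7 CPM (median 11.4) in the exposed libraries, and 5 exposed libraries were below every air library. Its log2 fold change was -0.31 ± 0.11 (SE, adjusted p = 0.463 in edgeR). For each of Msmo1, Sc5d and Dhcr7, 1 exposed library was above the air mean, and library 5 was the highest exposed library for all 3.

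Hsd17b7, a sterol ketoreductase, had 9.62 ± 1.03 CPM (SD, n = 7) in air and 8.44 ± 1.96 CPM (SD, n = 7) in exposed lungs, a log2 fold change of -0.24 ± 0.12 (SE, adjusted p = 0.598 in edgeR). Ebp, the sterol isomerase, stood on the other side of 0 at 15.3 ± 1.09 CPM (SD, n = 7) in air and 15.7 ± 1.5 CPM (SD, n = 7) in exposed lungs, a log2 fold change of 0.03 ± 0.07 (SE, adjusted p = 0.930 in edgeR). The rest of the branch, on the log2 fold change scale, were the lanosterol demethylase Cyp51 (-0.15), the dehydrogenase Nsdhl (-0.04) and the sterol reductase Tm7sf2 (-0.05).

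Among the regulators only Srebf1, the factor with the stronger hold on fatty acid genes, had an unadjusted p under 0.05 at day 7. It ranged from 78.3 to 115 CPM (median 87.2) in the air libraries and from 58.5 to 96.8 CPM (median 77.5) in the exposed libraries, with 4 exposed libraries below every air library and 2 above the air mean. Its log2 fold change was -0.24 ± 0.10 (SE, adjusted p = 0.57 in edgeR). Srebf2, the factor with the stronger hold on sterol genes, had 180.3 ± 11.5 CPM (SD, n = 7) in air and 180.3 ± 7.37 CPM (SD, n = 7) in exposed lungs, a log2 fold change of -0.0012 ± 0.04 (SE, adjusted p = 0.996 in edgeR). Scap had 72.9 ± 3.37 CPM (SD, n = 7) in air and 72.6 ± 3.86 CPM (SD, n = 7) in exposed lungs, a log2 fold change of 0.0013 ± 0.04 (SE, adjusted p = 0.996 in edgeR). The sign of Srebf2 changed under limma-voom, and that of Scap under RLE size factors, DESeq2, the fit of all 48 libraries and with close pairs summed. Insig1, itself a target of the SREBP factors, ranged from 108 to 179 CPM (median 127) in the air libraries and from 91.0 to 166 CPM (median 115) in the exposed libraries, with a log2 fold change of -0.23 ± 0.13 (SE, adjusted p = 0.662 in edgeR). Stard4, which moves cholesterol between membranes, had a log2 fold change of -0.03.

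The fatty acid genes had smaller differences at day 7, with a median of -0.11 and 7 of 8 lower. Fasn, the fatty acid synthase, ranged from 428 to 615 CPM (median 467) in the air libraries and from 323 to 512 CPM (median 478) in the exposed libraries, with a log2 fold change of -0.12 ± 0.09 (SE, adjusted p = 0.754 in edgeR) and 6 of 8 exposed libraries below the air mean. Acaca, which makes malonyl-CoA for it, had 71.3 ± 5.52 CPM (SD, n = 7) in air and 66.3 ± 9.66 CPM (SD, n = 7) in exposed lungs, a log2 fold change of -0.12 ± 0.07 (SE, adjusted p = 0.662 in edgeR). Me1, the malic enzyme that supplies NADPH, had 42.6 ± 1.48 CPM (SD, n = 7) in air and 40.9 ± 2.72 CPM (SD, n = 7) in exposed lungs, a log2 fold change of -0.05 ± 0.04 (SE, adjusted p = 0.796 in edgeR). Acly, the citrate lyase, was the member of this branch with an unadjusted p under 0.05, at 329 ± 17.5 CPM (SD, n = 7) in air and 306 ± 22.7 CPM (SD, n = 7) in exposed lungs, a log2 fold change of -0.11 ± 0.04 (SE, adjusted p = 0.511 in edgeR). Fads1 (-0.11) and Fads2 (-0.20), which desaturate long fatty acids, and Acss2 (-0.08), which makes acetyl-CoA from acetate, were below 0 on the log2 fold change scale. The elongase Elovl6 (ENSRNOG00000048949, the identifier with the most counts of the 2 with this name) was the highest of the 30 at 0.32 ± 0.18, but rests on 1.36 to 3.24 CPM.

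Scd1 varied widely from lung to lung. At day 7 it ranged from 219 to 483 CPM (median 391) in the air libraries and from 148 to 576 CPM (median 339) in the exposed libraries, with a log2 fold change of -0.25 ± 0.25 (SE, adjusted p = 0.824 in edgeR). At day 1 its log2 fold change was -0.27 ± 0.29 (SE, adjusted p = 0.835 in edgeR) and at day 27 0.19 ± 0.24 (SE, adjusted p = 0.652 in edgeR).

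**Figure D2:**
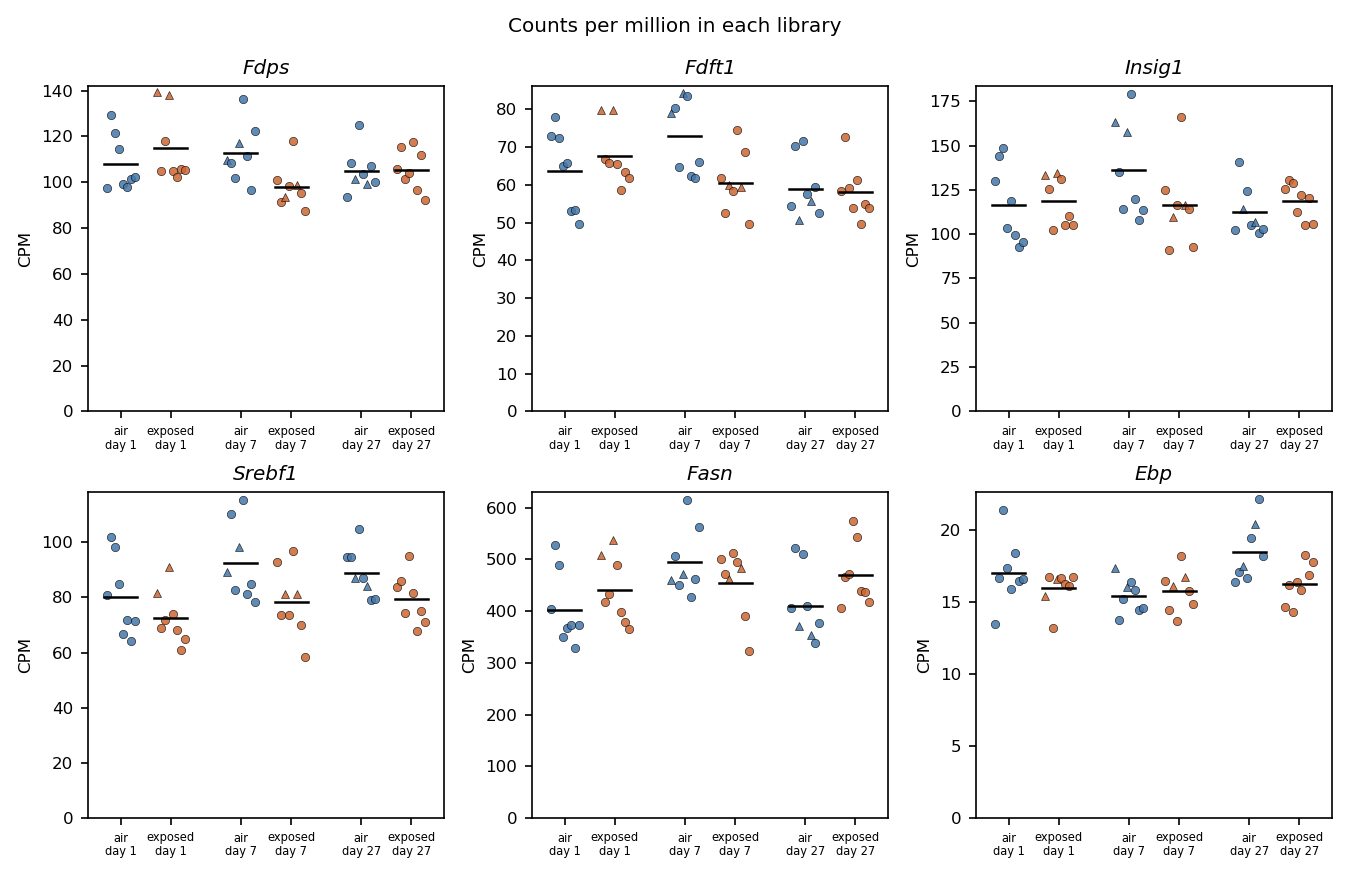
CPM of 6 genes in each of the 48 libraries, with blue points for air, orange points for exposed, triangles for libraries of a close pair and black lines for the mean of the 8 libraries. Air and exposed libraries overlap in every panel, including Fdps and Fdft1 at day 7, where 7 of 8 exposed libraries lie below the air mean.

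At day 1, the exposed lungs had 24 of 30 genes higher and 6 lower, with a median log2 fold change of 0.06 against 0.002 over all genes. That median was 0.03 with the close pair summed or without exposed library 4, 0.04 without exposed library 1 and 0.10 without air library 2. An unadjusted p under 0.05 was found for 1 gene higher, against 4.61% of all genes, and 0 lower, against 4.06%. That gene, Hsd17b7, ranged from 7.01 to 11.5 CPM (median 8.04) in the air libraries and from 8.22 to 12.8 CPM (median 9.63) in the exposed libraries, with 7 of 8 exposed libraries above the air mean. Its means were 8.48 ± 1.56 CPM (SD, n = 8) in air and 9.95 ± 1.61 CPM (SD, n = 7) in exposed lungs, a log2 fold change of 0.26 ± 0.12 (SE, adjusted p = 0.548 in edgeR). With the close pair summed into 1 library its unadjusted p was no longer under 0.05. Leaving out any of air libraries 1, 3, 4, 6 and 7 or exposed libraries 1, 3 and 4 also left 0 genes, and leaving out air library 2 or exposed library 8 gave 2.

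The genes with the next smallest p at day 1 were Sc5d at 0.20 ± 0.12 (SE, adjusted p = 0.679 in edgeR), Tm7sf2 at 0.17 ± 0.11 (SE, adjusted p = 0.706 in edgeR), Pmvk at -0.11 ± 0.08 (SE, adjusted p = 0.716 in edgeR), Sqle at 0.19 ± 0.14 (SE, adjusted p = 0.737 in edgeR) and Srebf1 at -0.14 ± 0.10 (SE, adjusted p = 0.744 in edgeR), all log2 fold changes. Srebf1 was thus on the other side of 0 from most of the enzymes, with 6 of 8 exposed libraries below the air mean. Hmgcs1 (119 CPM in air and 117 in exposed), Insig1 (116 and 116), Fdft1 (63.8 and 66.0), Scap (72.1 and 72.8), Srebf2 (184 and 189), Fasn (402 and 429.6) and Acaca (54.2 and 56.7) had smaller differences beside their spread. Ebp was below the air mean in all 8 exposed libraries of day 1, yet within the air range in 7 of them. The close pair of exposed day 1, libraries 1 and 4, held the highest mean levels of its group.

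At day 27 the genes were split, with 15 higher and 15 lower in exposed lungs and a median log2 fold change of -0.01, equal at 2 decimals to that of all genes. An unadjusted p under 0.05 was found for 4 genes lower, against 14.3% of all genes, and 2 higher, against 12.4%, so the 30 genes had no larger share than the rest. The count of 6 was 3 without air library 3, air library 7, exposed library 3 or exposed library 8. Me1 ranged from 35.0 to 42.0 CPM (median 39.5) in the air libraries and from 39.3 to 48.7 CPM (median 42.0) in the exposed libraries, and 7 of 8 exposed libraries were above the air mean. Its means were 39.6 ± 1.86 CPM (SD, n = 7) in air and 43.1 ± 3.24 CPM (SD, n = 8) in exposed lungs, a log2 fold change of 0.13 ± 0.05 (SE, adjusted p = 0.118 in edgeR). Ebp ranged from 16.4 to 22.2 CPM (median 17.9) in the air libraries and from 14.3 to 18.3 CPM (median 16.3) in the exposed libraries, and all 8 exposed libraries were below the air mean. Its means were 18.4 ± 2.02 CPM (SD, n = 7) in air and 16.3 ± 1.37 CPM (SD, n = 8) in exposed lungs, a log2 fold change of -0.19 ± 0.07 (SE, adjusted p = 0.124 in edgeR).

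Dhcr7 at day 27 had 11.5 ± 1.12 CPM (SD, n = 7) in air and 10.03 ± 1.08 CPM (SD, n = 8) in exposed lungs, a log2 fold change of -0.20 ± 0.08 (SE, adjusted p = 0.141 in edgeR). Srebf1 had 89.3 ± 9.32 CPM (SD, n = 7) in air and 79.4 ± 8.90 CPM (SD, n = 8) in exposed lungs, a log2 fold change of -0.16 ± 0.07 (SE, adjusted p = 0.143 in edgeR). Lss had 53.7 ± 4.94 CPM (SD, n = 7) in air and 45.9 ± 8.87 CPM (SD, n = 8) in exposed lungs, a log2 fold change of -0.23 ± 0.10 (SE, adjusted p = 0.165 in edgeR). For these 3 genes 7 of 8 exposed libraries were below the air mean. Of the 8 fatty acid genes 5 were above 0 and 3 below, the latter being Fads1 (-0.02), Fads2 (-0.03) and Acss2 (-0.08) on the log2 fold change scale. Acaca had 49.7 ± 10.3 CPM (SD, n = 7) in air and 58.6 ± 6.72 CPM (SD, n = 8) in exposed lungs, a log2 fold change of 0.23 ± 0.11 (SE, adjusted p = 0.185 in edgeR), and Fasn had 418 ± 71.8 CPM (SD, n = 7) in air and 469 ± 60.2 CPM (SD, n = 8) in exposed lungs, a log2 fold change of 0.19 ± 0.10 (SE, adjusted p = 0.211 in edgeR), with 7 and 6 of 8 exposed libraries above the air mean.

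Dhcr7 and Srebf1 were lower with an unadjusted p under 0.05 in edgeR at both day 7 and day 27. Srebf1 was also below 0 at day 1, at -0.14. Below 0 were 26 of the 30 at day 7 and 15 at day 27, against 50.3% and 52.0% of all genes. Others below 0 at both days included Mvk, Mvd, Fdft1, Msmo1 and Hsd17b7. How many of all genes were below 0 at both days, or lower with an unadjusted p under 0.05 at both, was not counted. Neither is therefore given as a trait of the set. Other log2 fold changes at day 27 were 0.01 ± 0.06 (SE, adjusted p = 0.940 in edgeR) for Fdps, -0.02 ± 0.08 (SE, adjusted p = 0.885 in edgeR) for Fdft1, -0.04 ± 0.08 (SE, adjusted p = 0.782 in edgeR) for Msmo1 and 0.02 ± 0.12 (SE, adjusted p = 0.948 in edgeR) for Sqle. Idi1, at 0.18 ± 0.11 (SE, adjusted p = 0.325 in edgeR), and Hmgcs1, at 0.10 ± 0.11 (SE, adjusted p = 0.582 in edgeR), were above 0. Insig1 had 112 ± 14.8 CPM (SD, n = 7) in air and 119 ± 9.99 CPM (SD, n = 8) in exposed lungs, Srebf2 had 169.8 ± 6.42 CPM (SD, n = 7) in air and 169.6 ± 9.11 CPM (SD, n = 8) in exposed lungs and Scap had 71.8 ± 3.45 CPM (SD, n = 7) in air and 69.4 ± 3.81 CPM (SD, n = 8) in exposed lungs.

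Whether the exposure effect itself differed between days was tested as a contrast in a fit of all 48 libraries. Between day 1 and day 7, 0 of the 30 genes passed, as did 0% of all genes. Between day 1 and day 27, 0 of 30 passed against 0.498% of all genes, and between day 7 and day 27, 0 of 30 against 0.0202%. The smallest adjusted p were 0.411, 0.288 and 0.211. An unadjusted p under 0.05 was found for 8 genes from day 1 to day 7, all with the lower effect at day 7, against 7.5% of all genes in either direction. The smallest p among these were those of Sc5d, at -0.41 ± 0.13 (SE, adjusted p = 0.411 in edgeR), and of Dhcr7, at -0.46 ± 0.16 (SE; adjusted p = 0.440). From day 7 to day 27 there were 9 such genes, 8 of them with the higher effect at day 27, against 14.9% of all genes. Idi1 came first at 0.46 ± 0.17 (SE; adjusted p = 0.211), and Ebp was the 1 with the lower effect. From day 1 to day 27 there were 2, against 14.6%. Both contrasts with day 7 use the same day 7 libraries. With RLE size factors, limma-voom, another filter or close pairs summed, 0 of 30 passed too, and with close pairs summed the counts of unadjusted p under 0.05 were 5, 0 and 5 in place of 8, 2 and 9.

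The level of the whole set was also taken as the mean of log2 CPM over the 30 genes in each library. At day 1 this mean level was 5.42 ± 0.12 (SD, n = 8) in air and 5.46 ± 0.12 (SD, n = 7) in exposed lungs. At day 7 it was 5.52 ± 0.12 (SD, n = 7) in air and 5.41 ± 0.14 (SD, n = 7) in exposed lungs. At day 27 it was 5.31 ± 0.12 (SD, n = 7) and 5.31 ± 0.07 (SD, n = 8). Each library counted singly, exposed minus air was 0.07, -0.13 and 0.01. At day 7 air libraries spanned 5.38 to 5.73 with a median of 5.55, and exposed libraries 5.19 to 5.64 with a median of 5.40. There 7 of 8 exposed libraries were below the air mean and 3 below every air library, while exposed library 5, the highest of its group, was above all but 1 air library. The difference at day 7 was thus about as large as 1 SD of either group. By branch, it was -0.17 for the enzymes up to lanosterol, -0.15 for those from lanosterol on, -0.10 for the regulators and -0.06 for the fatty acid genes.

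**Figure D3:**
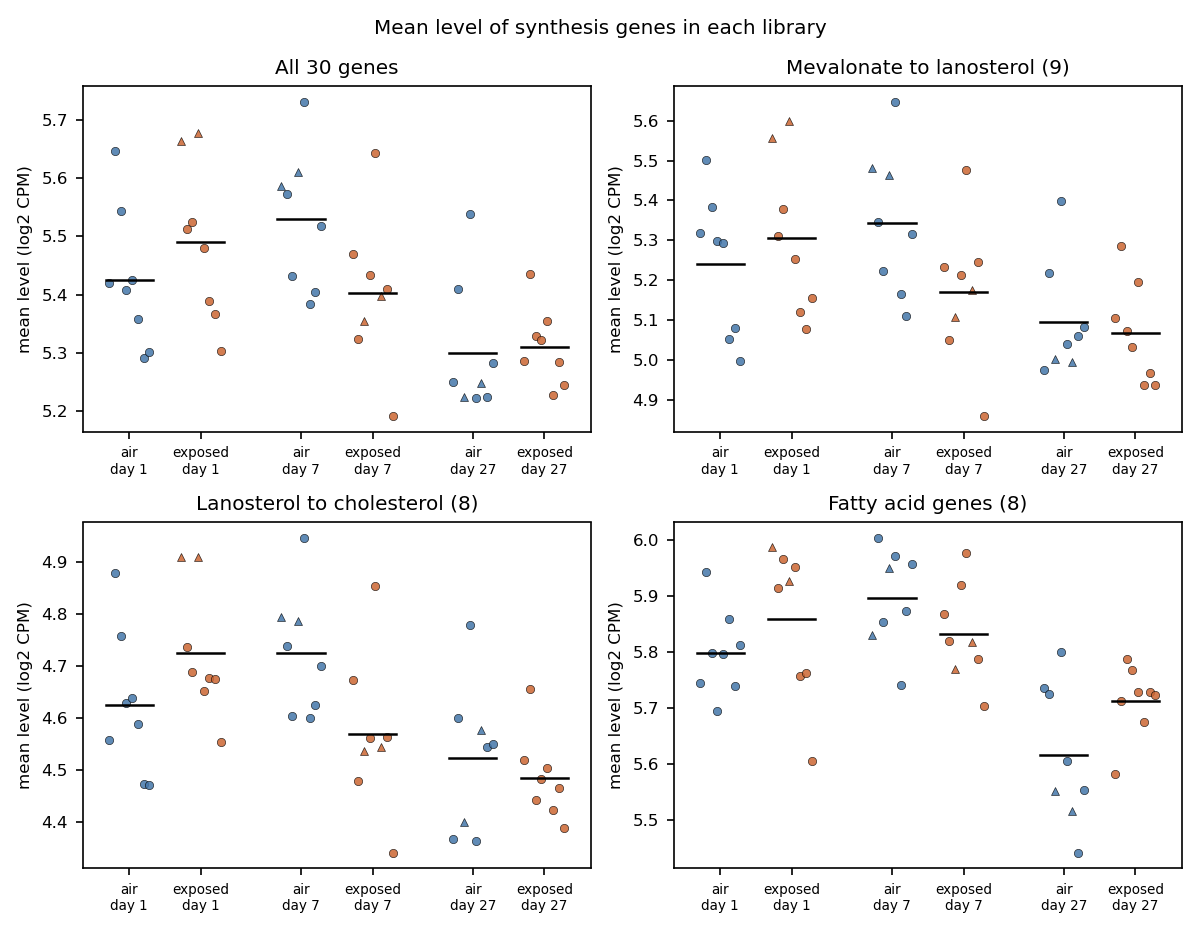
Mean log2 CPM over all 30 genes and over 3 of the branches in each of the 48 libraries, with blue points for air, orange for exposed, triangles for libraries of a close pair and black lines for the mean of the 8 libraries. At day 7 the exposed libraries span 5.19 to 5.64 over the 30 genes and the air libraries 5.38 to 5.73.

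Mean levels were also set side by side between days within each treatment, with no test, since each day has its own animals and its own count table and the day and the table cannot be told apart. Between air groups of day 1 and day 7, on CPM scaled over all 48 libraries, 23 of the 30 genes were higher at day 7, with a median log2 ratio of 0.12. Between the exposed groups of the same days 22 were lower, with a median of -0.08. From day 7 to day 27, 26 of 30 were lower in air (median -0.22) and 21 in exposed lungs (median -0.07). Hmgcs1 illustrates it, with 118 ± 29.6, 138 ± 33.5 and 83.7 ± 16.9 CPM (SD, n = 8, 7 and 7) in air at days 1, 7 and 27, and 117 ± 15.9, 114 ± 25.9 and 87.4 ± 10.7 CPM (SD, n = 7, 7 and 8) in exposed lungs. The air lungs of day 7 had the highest mean of the 6 groups and the air lungs of day 27 the lowest.

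The genes varied together from lung to lung within groups. After the mean of each group was subtracted, the median Pearson r over pairs of the 29 genes with at least 5 CPM was 0.35, and 364 of 406 pairs were above 0. Between one of them and another gene, of 11731, the median was 1.21e-04. These correlations span 48 libraries that share a kit, a tissue and 4 close pairs, and are given as a description. Against the mean of the other members, r was at least 0.5 for 20 of 30 genes and at least 0.7 for 13. Sqle had 0.87, Fdft1 0.86, Idi1 0.85, Msmo1 0.85 and Insig1 0.82. With the close pairs summed, over 44 libraries, these were 0.87, 0.85, 0.85, 0.84 and 0.83. Without the 2 libraries farthest from their group mean, exposed day 7 library 5 and air day 27 library 4, they were 0.85, 0.84, 0.83, 0.82 and 0.81.

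Not all members took part in it. Ebp (0.01), Tm7sf2 (0.02), Elovl6 (-0.08), Scap (0.18) and Me1 (0.17) had r under 0.2 over all 48 libraries. Within days 1, 7 and 27 Ebp had -0.01, 0.50 and -0.52, and Elovl6, Scap and Me1 also differed between days. Srebf1 had 0.79, with 0.85, 0.81 and 0.63 within days 1, 7 and 27, whereas Srebf2 had 0.53. Of the fatty acid genes Fasn had 0.75 and Acly 0.73, but Acaca only 0.36. Lss and Dhcr7 were lower at day 27, at 0.13 and 0.32, than over all days, at 0.57 and 0.75.

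**Figure D4:**
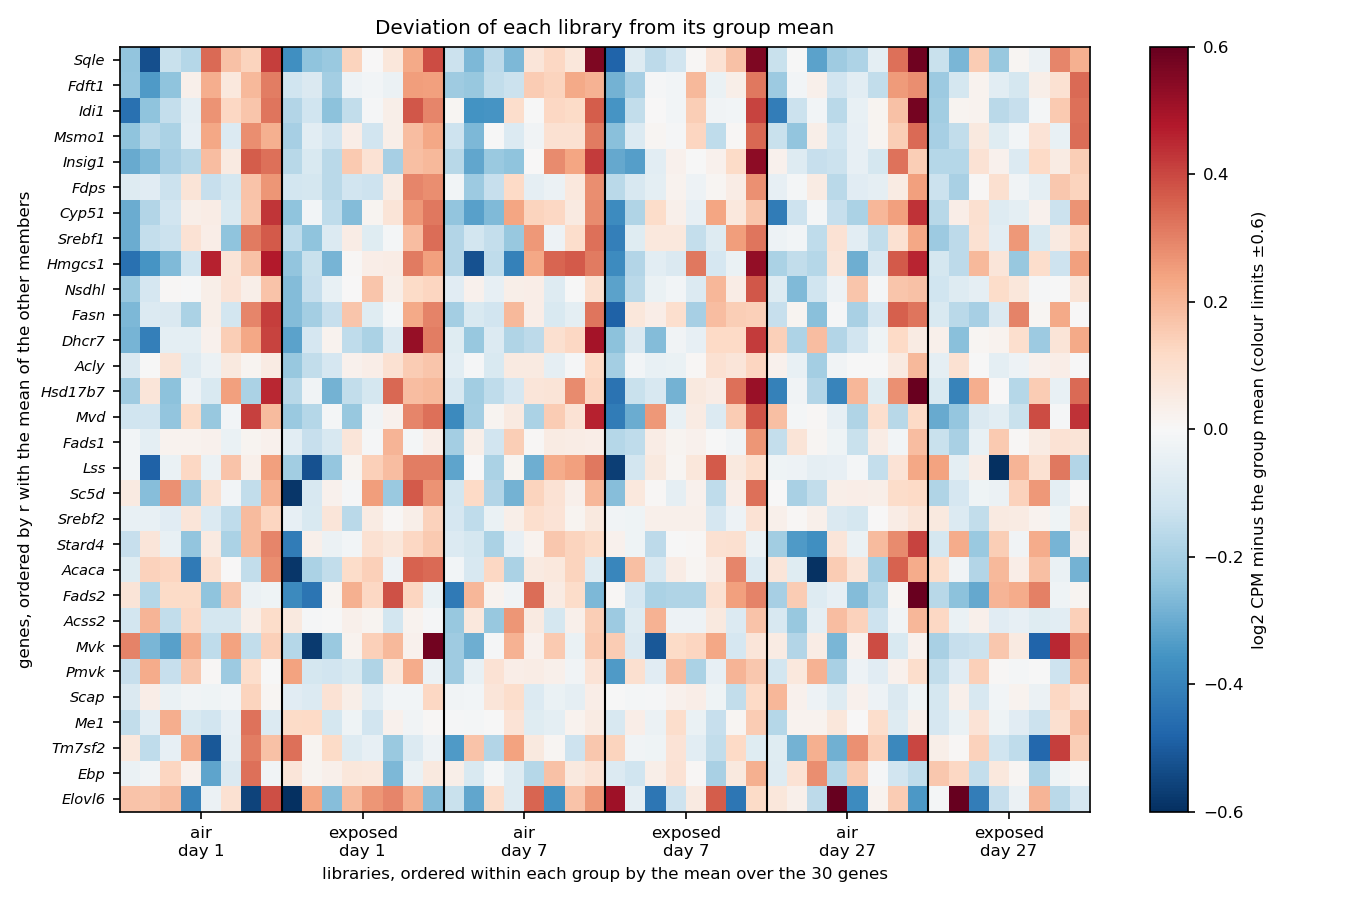
Log2 CPM of each of the 30 genes in each of the 48 libraries minus the mean of its group, with genes ordered by their r with the mean of the other members and libraries ordered within each group by their mean. The upper rows, from Sqle with r of 0.87 down, shift from blue to red together within each group, while the lowest rows, Ebp and Elovl6 among them, show no such order.

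Since the members varied together, their promoters were searched for letters that SREBP-regulated promoters are known to carry. RefSeq (GRCr8) windows from 250 bases before to 50 bases after the start were at hand for 23 of the 30 genes, 24 windows in all since Srebf1 has 2. Not searched, for want of a window, were Pmvk, Stard4, Fasn, Acaca, Elovl6 and the genes with the highest r, Sqle (0.87) and Fdft1 (0.86). The 4 windows given here run 5′ to 3′ on the gene's strand, with CCAAT or its reverse complement ATTGG in capitals. Idi1 (chr17:66547475-66547774, minus strand) and Msmo1 (chr16:29746863-29747162, plus strand) are shown as genes with high r and this box, Cyp51 (chr4:30991443-30991742, plus strand) as one with high r and no box, and Ebp (chrX:16971212-16971511, plus strand) as one with r near 0 over all days together and 2 boxes.
Idi1: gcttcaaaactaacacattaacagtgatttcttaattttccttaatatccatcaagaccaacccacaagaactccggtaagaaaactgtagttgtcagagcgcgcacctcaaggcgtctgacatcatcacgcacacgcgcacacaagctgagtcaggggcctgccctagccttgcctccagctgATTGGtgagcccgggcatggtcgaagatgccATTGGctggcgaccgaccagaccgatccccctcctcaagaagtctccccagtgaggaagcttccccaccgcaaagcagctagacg
Msmo1: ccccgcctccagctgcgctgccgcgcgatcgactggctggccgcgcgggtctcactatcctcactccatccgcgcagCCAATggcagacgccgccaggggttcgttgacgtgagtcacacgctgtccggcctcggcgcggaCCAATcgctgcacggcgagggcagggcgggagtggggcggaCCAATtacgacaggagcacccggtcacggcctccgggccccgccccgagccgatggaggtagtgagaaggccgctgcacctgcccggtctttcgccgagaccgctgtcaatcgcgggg
Cyp51: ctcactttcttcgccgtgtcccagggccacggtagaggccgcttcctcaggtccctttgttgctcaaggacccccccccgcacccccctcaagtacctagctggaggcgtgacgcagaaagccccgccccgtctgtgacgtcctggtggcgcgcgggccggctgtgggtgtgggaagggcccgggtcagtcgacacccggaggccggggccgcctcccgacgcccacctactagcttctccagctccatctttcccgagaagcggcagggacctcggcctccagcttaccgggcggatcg
Ebp: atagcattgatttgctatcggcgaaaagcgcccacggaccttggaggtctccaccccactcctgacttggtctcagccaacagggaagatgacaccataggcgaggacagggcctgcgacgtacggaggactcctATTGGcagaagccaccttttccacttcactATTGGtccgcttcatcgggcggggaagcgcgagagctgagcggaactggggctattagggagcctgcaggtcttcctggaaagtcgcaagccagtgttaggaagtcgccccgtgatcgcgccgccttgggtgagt

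CCAAT, the box bound by NF-Y, a partner of the SREBP factors, was found on either strand in 19 of the 24 windows (79.2%), against 37.5% of all 33469 RefSeq windows of this length and 36.8% of the 11410 windows of genes tested here. GGGCGG, the GC box bound by Sp1, was in 22 (91.7%), against 33.1% and 59.1%. The sterol regulatory element searched as TCACNCCAC was in 0 of the 24, against 1.12% and 1.06%. Its core CACNCCAC, which is contained in the longer form and was added after that form had no match, was in 3 (12.5%; Ebp, Fads1 and Insig1), against 5.8% and 5.84%. Of the 18 genes with a CCAAT box 14 had r of at least 0.5 with the mean of the other members, and of the 5 without one 2 had, Cyp51 (0.81) among them. These matches are letters in a window and no measure of binding.

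Among the other genes with at least 5 CPM, the 10 most like the mean level of the members were ranked by r over the same 48 libraries. Among them were Acat2 (0.69), which makes acetoacetyl-CoA, Aacs (0.82), an acetoacetyl-CoA synthetase, the desaturases Scd1 (0.76) and Scd2 (0.72), the citrate carrier Slc25a1 (0.61), the urea cycle enzyme Ass1 (0.71) and the clock activator Arntl (0.65). Within day 27 alone, Slc25a1 had only 0.04. Among the most opposed genes, chosen after their values were seen, were Cpt1a (-0.74), which admits fatty acids to mitochondria, Klf11 (-0.64), Angptl4 (-0.62), an inhibitor of lipoprotein lipase, and Nr1d2 (-0.62), a clock repressor. The hour at which lungs were taken is not given in the sources used here.

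The other genes of the pathways were examined as lists, in the same tests. Of 12 tested genes for sterol uptake and synthesis outside the 30, 0 passed at any day, and at day 7 the median log2 fold change was -0.01, with 3 genes lower and 2 higher at an unadjusted p under 0.05. Across libraries the mean level of these 12 had r of 0.88 with that of the members. Of 17 further fatty acid and glycerolipid genes, Slc25a1 passed at day 27, lower in exposed lungs, with 45.9 CPM in air and 39.0 in exposed and a log2 fold change of -0.24 ± 0.06 (SE, adjusted p = 0.038 in edgeR). The median of that list was 0.06, -0.06 and 0.08 at days 1, 7 and 27. Of the 11 or 12 tested genes of sterol efflux, which LXR receptors raise when sterol is plentiful, Apoe passed at day 27, at 410.7 CPM in air and 329 in exposed, with a log2 fold change of -0.32 ± 0.08 (SE, adjusted p = 0.032 in edgeR). The medians of the efflux list were -0.04, -0.02 and -0.07. Slc25a1 and Apoe were 1 of 17 and 1 of 12 tested genes of their lists at day 27, when 5.52% of all genes were called. With close pairs summed, a check chosen after seeing the data, the adjusted p of Slc25a1 and of Apoe at day 27 was 0.0621, and with each of the 16 libraries left out in turn they passed in 5 and 9 of 16 fits. Of 14 fatty acid oxidation genes 0 passed, with medians of 0.09, -0.01 and -0.01, and their level had r of -0.61 with that of the members.

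Markers of cell types were read beside these values. At day 7, 10 of 11 type 2 cell markers were lower in exposed lungs, with a median log2 fold change of -0.09, and their summed level was 20259 to 26008 CPM in air and 17214 to 23204 in exposed libraries. Across libraries their level had r of 0.30 with that of the members, but a rank correlation (Spearman) of only 0.13. Of the 9 tested markers of dividing cells 8 were lower at day 7, with a median of -0.20 and sums of 136 to 194 and 113 to 195 CPM, and r was 0.41. Of the 9 tested markers of alveolar macrophages 6 were lower at day 7 (median -0.03, sums of 430.0 to 539 and 408 to 471 CPM). There 4 were lower and 0 higher at an unadjusted edgeR p under 0.05, against 4.15% and 4.32% of all genes. Exposed minus air, the mean log2 level of the list was -0.12 at day 7 and -0.19 at day 27. All 9 were lower at day 27 (median -0.13). Cidec (log2 fold change -0.68) and Pparg (-0.33) passed there, against 5.52% of all genes, with edgeR adjusted p of 0.046 and 0.044. With close pairs summed these were 0.0776 and 0.0841, and each passed in 4 of 16 fits with a library left out. Their r with the members was -0.12. No marker of the other lists passed at any day. The part of these cell types in the values of the synthesis genes was not tested. Of the markers that define fat cells, Adipoq stayed below 1 CPM in every library and Plin1 at or near 0. The whole fat cell list of 11 genes summed to 67.8 to 110 CPM over all libraries. At days 1, 7 and 27, 5, 5 and 4 of them were tested, with medians of 0.06, 0.16 and -0.19. An unadjusted edgeR p under 0.05 was found for 1 lower at day 1, 1 higher at day 7 and 2 lower at day 27. The level of that list had r of -0.28 with that of the members. Heart muscle markers summed to 15.3 to 398 CPM over all libraries and had r of -0.01. Of the 6 tested, 6 were higher in exposed lungs at day 1 (median 0.47), 2 at day 7 and 0 at day 27 (median -0.29). At each day 0 of them had an unadjusted edgeR p under 0.05. Of 5 lung identity markers of several cell types 4 were lower at day 27 (median -0.11). There 3 were lower and 0 higher at an unadjusted edgeR p under 0.05, against 14.3% and 12.4% of all genes. The log2 library total had r of -0.05.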

How the data were processed

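Polyadenylated RNA from a piece of lung of 48 rats, 8 in each of 6 groups, was sequenced with a strand-preserving kit, per the labels' protocols. For the reads, the submitters' processing notes list Salmon 1.10.1 and STAR 2.6.1d, Trim Galore 0.6.7 with cutadapt 3.4, and bcl2fastq 2.19, with Rnor_6.0 as build; settings are not given in the sources used here. The authors deposited expected counts per gene identifier, not normalized, in 1 table per day. On average 5.58% of a library's values were not whole, and all were rounded to whole numbers. Groups came from the labels, which give animal numbers but neither cage nor sequencing batch.

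The libraries of a day were fitted apart from other days in R 4.3.3 (edgeR 4.0.16: TMM, filterByExpr, glmQLFit with robust set, glmQLFTest). P was adjusted over all genes tested by Benjamini-Hochberg, and 0.05 was the threshold. SE is the size of the log2 fold change over the square root of F. CPM values used TMM totals, and mean levels log2 CPM with a prior count of 2. Correlations used log2 CPM minus each group's mean. Pairs of members and the ranking of other genes used genes with at least 5 CPM. The r of a member with the mean of the others used all 30, and lists used genes with at least 1 CPM. The fits were tested on simulated counts with changes of 1.5-fold and 2-fold. Of the 1.5-fold changes, edgeR called 92%, 89% and 83% at days 1, 7 and 27. Smaller changes, as all those of the members were, were not simulated.

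The members and lists were chosen with earlier results of these data known. Described library by library were the 6 members with the smallest p at each day and 10 entry enzymes and regulators. Of the other lists, genes were named when called or when among the 3 smallest p of a day, and 10 by likeness to the members; some genes under this rule are not reported here. Where 2 identifiers share a name, the one with more counts was used.

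Alternatives were DESeq2 1.42.0, limma-voom (limma 3.58.1), RLE size factors, a minimum mean of 1 CPM or no low-count filter, all 48 libraries in 1 fit, other level scalings, close pairs (under 2 times counting noise over genes with at least 20 counts) summed, and each library left out in turn. Depth of 9445675 to 14400317 counts per library limits genes near 1 CPM. P-values compare libraries as separate animals. Promoters are RefSeq windows of GRCr8, another build than that of the counts.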

Additional observations from a re-analysis of the deposited data

Results flagged for a closer look

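An extreme library of 8 was marked when its gap to the next covered more of the group's range than Dixon's 95% limit. Close pairs were not averaged here. The groups tested were those of the members described library by library, of Scd1 and of the mean levels. Of 156 groups tested 9 were marked, and chance alone marks about 7.8.

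At day 7, library 5 stood out on the high side in both treatments. In exposed lungs it held 118 CPM of Fdps and 166 CPM of Insig1, and in air lungs a separate animal, also numbered 5, held 70.4 CPM of Sqle and 20.6 CPM of Dhcr7. Air library 6 of the same day was far below its group for Pmvk, at 19.7 CPM. At day 1, Lss was low in air library 8, at 39.3 CPM, and Ebp in exposed library 3, at 13.2 CPM. At day 27, Scap was high in air library 3, at 83.7 CPM, and Scd1 in air library 4, at 634 CPM.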

How the results depend on the processing

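The count of synthesis genes called was 0 under each alternative run, including each library left out, and so were the counts for the contrasts between days. Over all genes the count called at day 27 was 783, but 31 with close pairs summed, 474 without a low-count filter, 1613 with DESeq2, 2227 in 1 fit of all 48 libraries and 9 to 1926 with a library left out. The count of members at an unadjusted p under 0.05 was 1 at day 1, and 0 with close pairs summed; with a library left out it was 0 to 2 at day 1, 7 to 14 at day 7 and 3 to 8 at day 27. The median log2 fold change and the mean level difference moved by less than the spread between libraries under each alternative. That spread, an SD of the mean level of 0.12 at day 1 and 0.12 to 0.14 at day 7, was no smaller than the medians themselves. A median that fell to 0 would thus have counted as unmoved too. With a library left out the medians were 0.03 to 0.10, -0.15 to -0.09 and -0.03 to 0.03 at days 1, 7 and 27. At day 1 the median of 0.057 was 0.100 without air library 2, 0.036 without exposed library 1, 0.034 without exposed library 4 and 0.034 with close pairs summed. At day 27 the median and the level difference lay near 0 and took either sign.

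Of the single genes' log2 fold changes, 410 of 420 values under other settings and 903 of 960 with a library left out kept their sign. Those that changed it lay near 0. With close pairs summed, Hmgcs1 was -0.012 and Insig1 -1.94e-04 at day 1, Scap -0.00696 at day 7, and Fdps -5.68e-04, Sqle -0.00791 and Srebf2 -0.00268 at day 27. At day 7, Scap was -3.61e-04 with RLE size factors, -0.00149 with DESeq2 and -0.00173 in the fit of 48 libraries, and Srebf2 was 5.10e-04 with limma-voom. With a library left out, values at day 1 were -0.029 to 0.10 for Hmgcs1, -0.00875 to 0.097 for Idi1 and -0.015 to 0.079 for Insig1. At day 7 they were -0.035 to 0.086 for Lss, -0.067 to 0.00283 for Pmvk, -0.016 to 0.021 for Scap and -0.023 to 0.014 for Srebf2. At day 27 they were -0.078 to 0.024 for Fdft1, -0.014 to 0.051 for Fdps, -0.16 to 0.00507 for Hsd17b7, -0.095 to 0.016 for Msmo1, -0.030 to 0.12 for Sqle and -0.013 to 0.025 for Srebf2. The cause of these changes was not tested. No paired analysis was possible because the labels give no replicate numbers shared between groups. Elovl6, near 1 to 3 CPM, is the gene most limited by depth.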
